A study of Homo sapiens with 6 samples.

Results

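TUBA1B and TUBB are the genes of an alpha and a beta tubulin. They are 2 of the 62754 genes counted in LX-2, an established human hepatic stellate cell line labelled wild type (WT). The cells had spent 24 h with a fruit extract of the plant Brucea javanica (FEBJ), with cynaroside, a flavone glucoside (luteolin 7-glucoside), or with DMSO, the solvent used as control. Each group had 2 RNA libraries. The labels give no dose and leave unsaid if paired libraries stem from different cultures. A p-value below thus reflects nothing more than the spread between these libraries, which may be technical. In edgeR that spread is partly borrowed from the other rows tested, so it is not a row's own spread alone.

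Both genes were chosen by the counts of a non-coding row on the other strand, here called the opposite row, which were very high and moved with treatment. For TUBA1B the opposite row is ENSG00000258017 (TUBA1B-AS1), and for TUBB it is ENSG00000272540, which carries no gene name here. The opposite rows are therefore described without a test. The gene's own row (ENSG00000123416 for TUBA1B, ENSG00000196230 for TUBB) was not used in the choice and was tested. Whether reads were counted by strand is not given in the sources used here, so transcripts of a gene and of its antisense partner cannot be told apart in either row.

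Microtubules are hollow polymers of a dimer of 1 alpha and 1 beta tubulin. Cells keep the supply of the dimer in check by a feedback in which free tubulin speeds the decay of the mRNAs that encode it, through a factor that reads the first amino acids of the growing tubulin chain. Newly made tubulin folds inside the cytosolic chaperonin, aided by prefoldin and a set of dedicated cofactors, and gamma tubulin starts new microtubules at the centrosome. In stellate cells, the collagen-producing cells of the liver, microtubules carry secretory vesicles and shape the spread, activated cell.

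In GENCODE 29 (GRCh38), TUBA1B lies on the minus strand at chr12:49127782-49131397 and its opposite row on the plus strand at chr12:49127782-49147869. TUBB lies on the plus strand at chr6:30720201-30725426 and its opposite row on the minus strand at chr6:30723105-30723877. The submitters' processing notes name the older build hg19, so these places were matched by gene identifier and not by the files' own coordinates. The exons of the TUBA1B opposite row cover 1182 of the 1627 bases of the main TUBA1B transcript, which include 925 of its 1356 coding bases and part of its UTR. The exon of the TUBB opposite row covers 538 of the 2670 bases of the TUBB transcript, and all 538 are coding.

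The tubulin genes resemble each other, so part of the transcript under each opposite row does not name a single gene. Of the 1084 runs of 50 bases in that stretch of TUBA1B, 700 (64.6%) also occur in transcripts of other genes, mostly TUBA1A, TUBA1C and the pseudogene TUBAP2. For runs of 100 bases the share is 48.1%. In the TUBB stretch 32.5% of runs of 50 bases and 10.5% of runs of 100 bases are shared, all with the pseudogene TUBBP1. The share of counts aligned to more than 1 place was 2.79% in both DMSO libraries, 2.93% and 3.02% with FEBJ, and 3.61% and 3.64% with cynaroside. How the aligner and counter treated such reads at these genes is not given in the sources used here, and the part of this shift in the tubulin values was not tested.

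The libraries held 1599000 to 4709317 counts in gene rows, which is 5.48% to 6.12% of all counts in the tables. Between 87.4% and 88.3% of all counts fell in no annotated feature. Levels are given in CPM, the counts for every 1e+06 gene-row counts of a library scaled by TMM, edgeR's factor that aligns the bulk of the rows between libraries. After a filter on low counts, 12012 rows were tested, and a row was called at an adjusted p of 0.05 or less. All 9 of the 12 stellate markers that had a count in their own row passed the filter, while COL1A2, DES and LRAT were at 0 there. Their summed level in the genes' own rows was 802 and 810 CPM with DMSO, 75.2 and 68.9 CPM with FEBJ, and 181 and 155 CPM with cynaroside. Of their 7 tested opposite rows, 3 were called higher and 4 lower with FEBJ (median log2 fold change -0.48), and 3 higher and none lower with cynaroside (median 0.14). Over 2004 non-coding rows opposite a single coding gene, 37.8% were called higher and 23.9% lower with FEBJ, and 42.3% and 5.69% with cynaroside. Among markers of other liver cells, several defining ones had own rows at 0 in every library, namely ALB, TTR and HNF4A of hepatocytes, KRT19 and EPCAM of bile duct, CD163 and PTPRC of macrophages, and PECAM1, VWF and CDH5 of endothelium. As COL1A2 was at 0 in its own row too, such zeros do not show that a gene was silent. The 2 opposite rows of hepatocyte markers did not pass the filter. The remaining hepatocyte markers summed in own rows to 0.707 and 0.486 CPM with DMSO, 12.3 and 11.1 CPM with FEBJ, and 0 and 1.76 CPM with cynaroside, and those of macrophages to 1.77 and 1.94, 9.95 and 10.8, and 6.86 and 3.78 CPM. The 1 tested hepatocyte row, SERPINA1, and 1 of 2 tested macrophage rows, CD68, were called higher with FEBJ. Bile duct markers summed in own rows to 9.90 and 6.08, 6.37 and 4.82, and 2.06 and 1.51 CPM. Their 1 tested opposite row was called higher with FEBJ (log2 fold change 2.78) and lower with cynaroside (-0.77). Endothelial markers summed to 124 and 125, 166 and 155, and 163 and 169 CPM, nearly all of it from the STAB1 row, which shares its place with NT5DC2 on the other strand and was called higher with both treatments. The part of these markers in the tubulin values was not tested. In RNA from a whole culture, fewer cells of a type and less RNA per cell cannot be told apart.

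The opposite rows of both tubulins stood among the most abundant rows of every library. The TUBA1B opposite row held 85757 and 124151 counts with DMSO, 40840 and 59432 with FEBJ, and 48354 and 142198 with cynaroside. It ranked first of all gene rows in both DMSO libraries and second in the other 4. Scaled, this was 30308 and 30181 CPM with DMSO, 16249 and 16856 CPM with FEBJ, and 33174 and 35842 CPM with cynaroside. The 2 FEBJ libraries were far below the other 4. The cynaroside libraries lay above the DMSO libraries on this scale but below them as a share of gene-row counts, at 3.02% and 3.02% against 3.38% and 3.34%.

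The TUBB opposite row held 41365 and 60437 counts with DMSO, 10752 and 14968 with FEBJ, and 32137 and 92100 with cynaroside. This was 14619 and 14692 CPM with DMSO, 4278 and 4245 CPM with FEBJ, and 22048 and 23214 CPM with cynaroside. The 3 groups did not overlap, though the share of all rows that separate in this way is not given. For scale, 50.8% of all rows tested were called between FEBJ and DMSO (26.0% higher, 24.8% lower), 45.4% between cynaroside and DMSO (24.3% higher, 21.1% lower) and 41.9% between FEBJ and cynaroside (21.5% higher, 20.4% lower). The row ranked 6 in both DMSO libraries, 15 in both FEBJ libraries and 5 in both cynaroside libraries. Per kilobase of the tubulin transcript that the opposite row covers, the rows were close in the control cells. There the TUBA1B opposite row had 25642 and 25534 CPM per kilobase and the TUBB opposite row 27173 and 27309. With FEBJ the values per kilobase were 13747 and 14260 for TUBA1B and 7952 and 7891 for TUBB, and with cynaroside they were 28066 and 30323 against 40982 and 43149. By this measure the TUBB opposite row was the higher in the DMSO and cynaroside libraries and the lower in the FEBJ libraries. The measure takes all counts of a row to lie in that stretch. The exons of the opposite rows are longer, at 1632 bases for TUBA1B and 773 for TUBB, and would give other values.

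**Figure D1:**
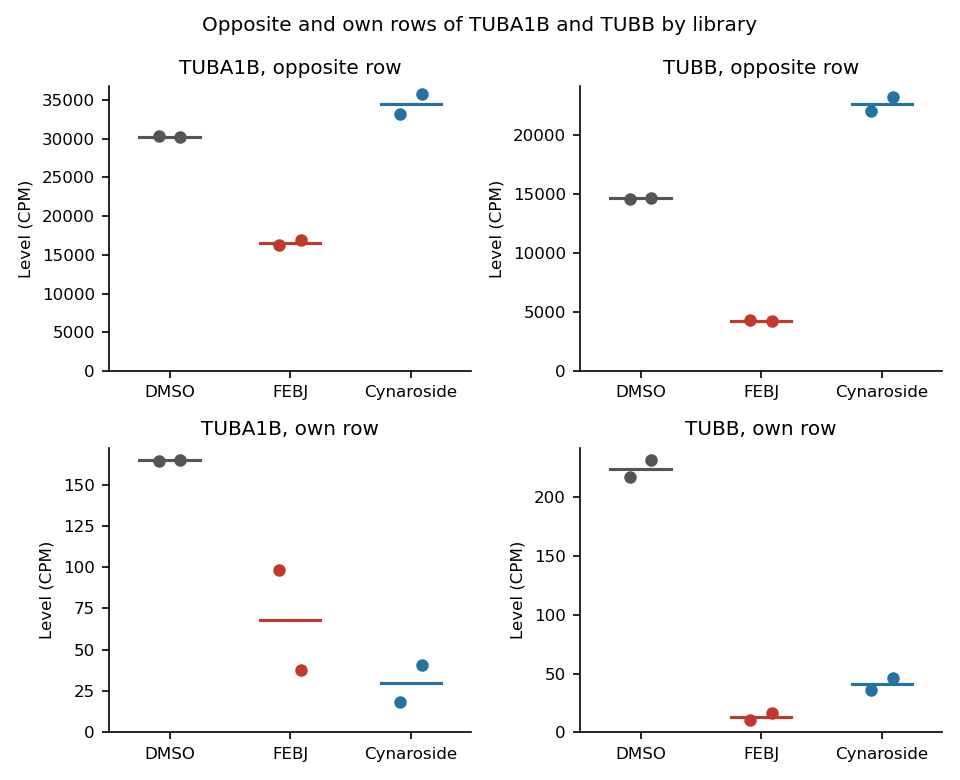
Level in CPM (vertical axes, each from 0) of the opposite row (top) and own row (bottom) of TUBA1B (left) and TUBB (right), by group; each point is 1 library and each line the mean of 2. The opposite rows sit between 4245 and 35842 CPM and the own rows between 10.3 and 231 CPM; the FEBJ libraries are lowest in both opposite rows, and the DMSO libraries highest in both own rows.

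As a fold change from the fit of all rows, the TUBA1B opposite row was 1.83-fold lower with FEBJ than with DMSO (log2 fold change -0.87 ± 0.04, standard error, 2 libraries a group). The TUBB opposite row was 3.44-fold lower (-1.78 ± 0.04). Between the treatments, FEBJ libraries lay below cynaroside libraries by a log2 fold change of -1.06 ± 0.04 for TUBA1B and -2.41 ± 0.04 for TUBB. With cynaroside the TUBB opposite row was 1.54-fold higher than with DMSO (log2 fold change 0.63 ± 0.04), and it remained above 0 under the other scalings, down to 0.16. For the TUBA1B opposite row the log2 fold change with cynaroside was 0.19 ± 0.04, but its sign depended on the scaling: it was -0.15 with plain gene-row totals, -0.28 with all counts of the table as library size and -0.27 with factors taken from opposite non-coding rows alone. Its direction with cynaroside is therefore not given here.

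**Figure D2:**
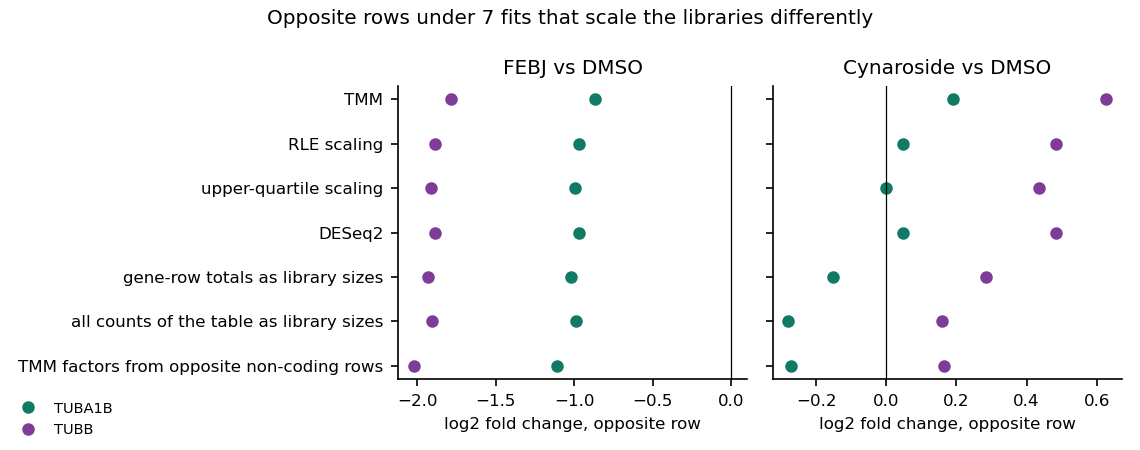
Log2 fold change of the opposite rows of TUBA1B and TUBB (horizontal axes) under 7 fits that scale the libraries differently (vertical axis), for FEBJ against DMSO (left) and cynaroside against DMSO (right). With FEBJ every point is below 0; with cynaroside the TUBB points run from 0.16 to 0.63 and the TUBA1B points lie on both sides of 0, from -0.28 to 0.19.

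A ratio of counts inside a library needs no scaling. Counts of the TUBB opposite row were 48.2% and 48.7% of those of the TUBA1B opposite row with DMSO, 26.3% and 25.2% with FEBJ, and 66.5% and 64.8% with cynaroside. The group means were 48.5% ± 0.31 (SD, n = 2), 25.8% ± 0.81 (SD, n = 2) and 65.6% ± 1.2 (SD, n = 2). Relative to the alpha tubulin row, the beta tubulin row was thus lower with FEBJ and higher with cynaroside than with DMSO, and the gaps between groups exceeded the spread within each. Since both rows chose the genes, this ratio is a description. Together the 2 opposite rows took 5.01% and 4.96% of gene-row counts with DMSO, 2.06% and 2.11% with FEBJ, and 5.03% and 4.98% with cynaroside.

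Other non-coding rows opposite a single coding gene give a scale for these values. Over the 2004 of them that passed the filter, the 2 tubulin rows left out, the median log2 fold change was 0.27 with FEBJ and 0.45 with cynaroside. The median over all 12012 rows was -0.06 and 0.02. With FEBJ the tubulin opposite rows (-0.87 and -1.78) lay below the median of their class, of which 37.8% were called higher and 23.9% lower. With cynaroside, 0.19 for TUBA1B lay below the class median and 0.63 for TUBB above it.

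The own rows of both tubulin genes held far fewer counts, and both fell with each treatment. As 24.8% of all rows were called lower with FEBJ and 21.1% with cynaroside, 2 called rows of 2 are read against a high background. Lower own rows were also common where no exon lies opposite: of 3892 such protein-coding rows, 34.6% were called lower with FEBJ and 39.1% with cynaroside, with median log2 fold changes of -1.03 and -1.41. Own rows of 1743 coding genes that have an opposite non-coding row, the tubulins left out, had medians of -0.02 and -0.24. The comparisons with DMSO share the same control libraries.

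TUBA1B, a major alpha tubulin of dividing cells, had 465 and 679 counts in its own row with DMSO, 247 and 133 with FEBJ, and 27 and 162 with cynaroside. The levels were 164 and 165 CPM, 98.3 and 37.7 CPM, and 18.5 and 40.8 CPM. DMSO libraries were above all treated libraries, the 2 FEBJ libraries were far apart, and the lower of them fell just below the higher cynaroside library. The row fell by 1.31 ± 0.26 (standard error) on the log2 scale with FEBJ (adjusted p = 9.44e-05, edgeR quasi-likelihood test) and by 2.33 ± 0.28 with cynaroside (adjusted p = 1.11e-07, edgeR quasi-likelihood test). DESeq2, another count model, gave an adjusted p of 0.0643 for the first of these.

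In the direct comparison the TUBA1B own row was higher with FEBJ than with cynaroside by 1.02 ± 0.29 on the log2 scale (adjusted p = 0.00607, edgeR quasi-likelihood test), where 21.5% of all rows were called higher. That difference rested on 1 library: without FEBJ library 1 it was 0.23, with an adjusted p of 0.559 in edgeR's quasi-likelihood test. It was 0.63 without cynaroside library 1 and 1.83 without cynaroside library 2, and DESeq2 gave an adjusted p of 0.124. Against DMSO the log2 fold change with FEBJ was -0.77 without FEBJ library 2 and -2.11 without FEBJ library 1, and with cynaroside it was -3.15 without cynaroside library 2, each past the threshold.

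TUBB, the beta tubulin that most cell types make in quantity, had 614 and 952 counts in its own row with DMSO, 26 and 59 with FEBJ, and 53 and 185 with cynaroside. These were 217 and 231 CPM, 10.3 and 16.7 CPM, and 36.4 and 46.6 CPM. The 3 groups did not overlap here, though the share of all rows that separate in this way is not given. The row was 16.1-fold lower with FEBJ than with DMSO (log2 fold change -4.01 ± 0.20, adjusted p = 4.26e-16, edgeR quasi-likelihood test). It was 5.25-fold lower with cynaroside (-2.39 ± 0.18, adjusted p = 1.27e-11, edgeR quasi-likelihood test), and 3.06-fold lower with FEBJ than with cynaroside (-1.62 ± 0.23, adjusted p = 9.46e-07, edgeR quasi-likelihood test). Own and opposite rows of TUBB thus differed in direction with cynaroside, the own row lower and the opposite row higher than with DMSO, while both were lower with FEBJ.

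Since the own rows were so small beside the opposite rows, adding each pair returned the values of the opposite rows. The sum for TUBA1B had log2 fold changes of -0.87 with FEBJ and 0.18 with cynaroside, and the sum for TUBB -1.80 and 0.61. These sums are not a count made without regard to strand, since the opposite rows cover only part of each tubulin transcript.

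The size of the own row relative to the opposite row also moved with treatment. Own counts of TUBA1B were 0.542% and 0.547% of the opposite counts with DMSO, 0.605% and 0.224% with FEBJ, and 0.0558% and 0.114% with cynaroside. For TUBB they were 1.48% and 1.58%, 0.242% and 0.394%, and 0.165% and 0.201%. The TUBB share was lower in all 4 treated libraries than in either DMSO library, whereas the TUBA1B share of FEBJ library 1 was above both. With 2 libraries against 2 an exact permutation test cannot go below p = 0.33, so no test was made of these shares.

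Over genes with a well-filled opposite row, the median own share was also lower in the treated libraries. There were 365 such pairs, TUBA1B and TUBB among them, with at least 5000 counts in own and opposite rows summed over all libraries. Their median own share was 5.18% and 4.88% with DMSO, 2.88% and 2.77% with FEBJ, and 1.74% and 1.81% with cynaroside. TUBA1B lay near the low end, with only 9 and 13 of the 365 pairs below its share in the DMSO libraries, 69 and 31 with FEBJ, and 43 and 12 with cynaroside. For TUBB, 50 and 49 pairs lay below with DMSO, 30 and 48 with FEBJ, and 56 and 29 with cynaroside.

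**Figure D3:**
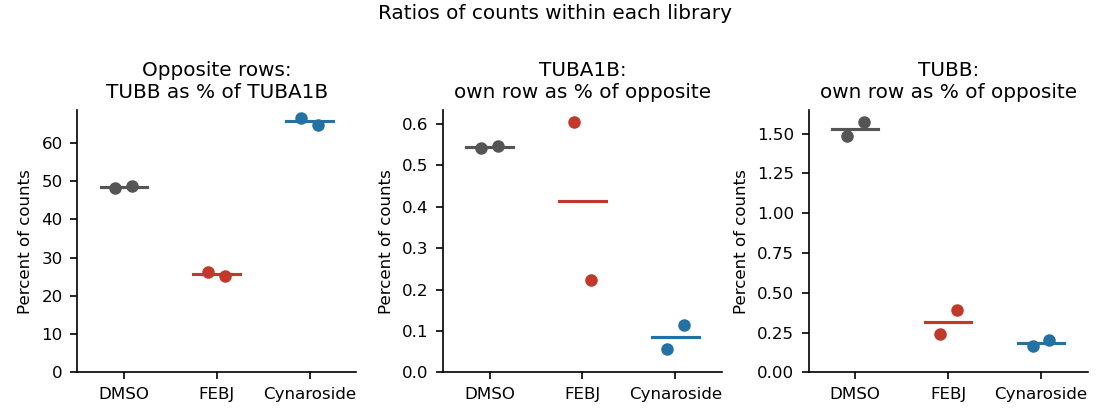
Ratios of counts in percent (vertical axes, each from 0) for each library (points) and their group mean (lines): opposite row of TUBB over that of TUBA1B (left), and own over opposite row for TUBA1B (middle) and TUBB (right). The left ratio is 48.2% and 48.7% with DMSO, 26.3% and 25.2% with FEBJ and 66.5% and 64.8% with cynaroside; the TUBB own share falls from 1.48% and 1.58% to between 0.165% and 0.394% in the treated libraries.

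The tubulin family was fixed as a list of 23 genes, of which 12 own rows passed the filter on low counts. Leaving TUBA1B and TUBB out, 10 own rows remained. With FEBJ 3 of these 10 were called higher and 4 lower, with a median log2 fold change of -1.05, against 26.0% of all rows higher and 24.8% lower. With cynaroside 1 was called higher and 2 lower (median -0.44), against 24.3% and 21.1% of all rows, and with all counts of the table as library size 1 higher and 6 lower. The split with FEBJ was the same under every scaling tried. Members therefore went in both directions, and several share their place with another coding gene on the opposite strand.

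Among alpha tubulins, TUBA1C encodes a near-identical protein and overlaps TUBA1A by 490 bases on the other strand. Its opposite row, ENSG00000258232, was 5023 and 5089 CPM with DMSO, 2059 and 2039 CPM with FEBJ, and 4518 and 4730 CPM with cynaroside. Like the opposite rows of TUBA1B and TUBB it was low in the FEBJ libraries (log2 fold change -1.30 ± 0.05, adjusted p = 2.67e-18, edgeR quasi-likelihood test). With cynaroside it was called at -0.13 ± 0.05 (adjusted p = 0.0432, edgeR quasi-likelihood test), a call kept under the other scalings and lost with other filters or fewer libraries. The adjusted p in edgeR's test was 0.23 without the low-count filter, 0.2 with a filter at 1 CPM, and 0.153 to 0.411 without any 1 of 5 libraries, all but cynaroside library 2.

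The TUBA1C own row was 215 and 236 CPM with DMSO, 43.0 and 36.9 CPM with FEBJ, and 173 and 206 CPM with cynaroside. With FEBJ it fell by 2.51 ± 0.14 on the log2 scale (adjusted p = 9.45e-15, edgeR quasi-likelihood test). With cynaroside the value was -0.24 ± 0.13 (adjusted p = 0.124, edgeR quasi-likelihood test), and it was called lower under each of the other scalings, for example at -0.39 with RLE factors (adjusted p = 0.00746, edgeR quasi-likelihood test). The TUBA1A own row, from the alpha tubulin known best from developing neurons, went the other way with FEBJ, from 17.7 and 19.4 CPM to 49.7 and 57.6 CPM (log2 fold change 1.53 ± 0.30, adjusted p = 0.000109, edgeR quasi-likelihood test). Since each of these own rows lies opposite the other gene, which of the pair its reads came from cannot be told.

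TUBA4A, an alpha tubulin whose protein ends without the usual tyrosine, rose with both treatments. It was 5.65 and 7.78 CPM with DMSO, 45.4 and 39.4 CPM with FEBJ, and 25.4 and 30.0 CPM with cynaroside. The log2 fold changes were 2.62 ± 0.34 with FEBJ (adjusted p = 1.83e-07) and 2.03 ± 0.35 with cynaroside (adjusted p = 2.79e-05), both in edgeR's quasi-likelihood test. The row overlaps STK16 and TUBA4B on the other strand. TUBA3D, at 2 to 15 CPM on average, was not called against DMSO with all 6 libraries, at log2 fold changes of -1.34 with FEBJ (adjusted p = 0.122) and 1.47 with cynaroside (adjusted p = 0.0539) in edgeR's quasi-likelihood test. With fewer libraries it was called in part, for example with cynaroside when only the 4 libraries compared were fitted (1.31, adjusted p = 0.0425, edgeR quasi-likelihood test) and with FEBJ without FEBJ library 1 (-2.58, adjusted p = 0.0355, edgeR quasi-likelihood test). It was lower with FEBJ than with cynaroside (log2 fold change -2.81 ± 0.70).

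Among beta tubulins, the own row of TUBB4B, a widely made isotype, fell with both treatments, from 57.6 and 69.5 CPM to 20.3 and 20.1 CPM with FEBJ and to 17.8 and 12.1 CPM with cynaroside. Its log2 fold changes were -1.66 ± 0.27 (adjusted p = 8.79e-06) and -2.16 ± 0.29 (adjusted p = 8.12e-07) in edgeR's quasi-likelihood test. TUBB4B overlaps FAM166A by 124 bases on the other strand. The FAM166A row was larger, at 406 and 402 CPM with DMSO, 407 and 426 CPM with FEBJ, and 385 and 400 CPM with cynaroside. Under TMM it was not called against DMSO (log2 fold changes 0.04 and -0.04). TUBB1, the isotype of platelets and their precursors, shares its place with ATP5F1E, and its row fell with FEBJ (log2 fold change -1.59 ± 0.41). With cynaroside it was at -0.72 ± 0.40 and not called, and between the treatments the difference was -0.87 ± 0.43 (adjusted p = 0.108, edgeR quasi-likelihood test). With factors from opposite rows, gene-row totals or all counts it was called lower with cynaroside (-1.20, -1.08 and -1.21). TUBB2A was not called under TMM (-0.76 with FEBJ and -1.54 with cynaroside). With cynaroside it was called lower under 4 other scalings, from -1.75 with upper quartile (adjusted p = 0.0497) to -2.03 with all counts (adjusted p = 0.0237) in edgeR's test. The opposite row of TUBB4A was not called (0.29 and 0.63).

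TUBB6 held the most counts of the tested own rows of the family, at 697 and 757 CPM with DMSO, 1469 and 1453 CPM with FEBJ, and 660 and 749 CPM with cynaroside. It rose with FEBJ (log2 fold change 1.01 ± 0.07, adjusted p = 2.19e-12, edgeR quasi-likelihood test), opposite in direction to the own row of TUBB. With cynaroside the value was -0.04 ± 0.07 (adjusted p = 0.691, edgeR quasi-likelihood test), and with all counts of the table as library size it was -0.51 (adjusted p = 1.97e-08, edgeR quasi-likelihood test). TUBB6 overlaps AFG3L2, the gene of a mitochondrial protease, by 837 bases on the other strand. The AFG3L2 row was 303 and 287 CPM with DMSO, 298 and 297 CPM with FEBJ, and 781 and 820 CPM with cynaroside, so of these overlapping rows TUBB6 was high with FEBJ and AFG3L2 with cynaroside (log2 fold change of AFG3L2 against DMSO 1.44, adjusted p = 1.43e-13, edgeR quasi-likelihood test).

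TUBG1, the gamma tubulin that starts microtubules, fell from 25.8 and 25.5 CPM with DMSO to 5.17 and 8.51 CPM with FEBJ and 4.12 and 3.78 CPM with cynaroside. The log2 fold changes were -1.88 ± 0.45 (adjusted p = 0.00105) and -2.71 ± 0.50 (adjusted p = 7.85e-05) in edgeR's quasi-likelihood test. The row lies opposite part of RETREG3. TUBG2, with 9 to 20 counts a group, was not called.

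**Figure D4:**
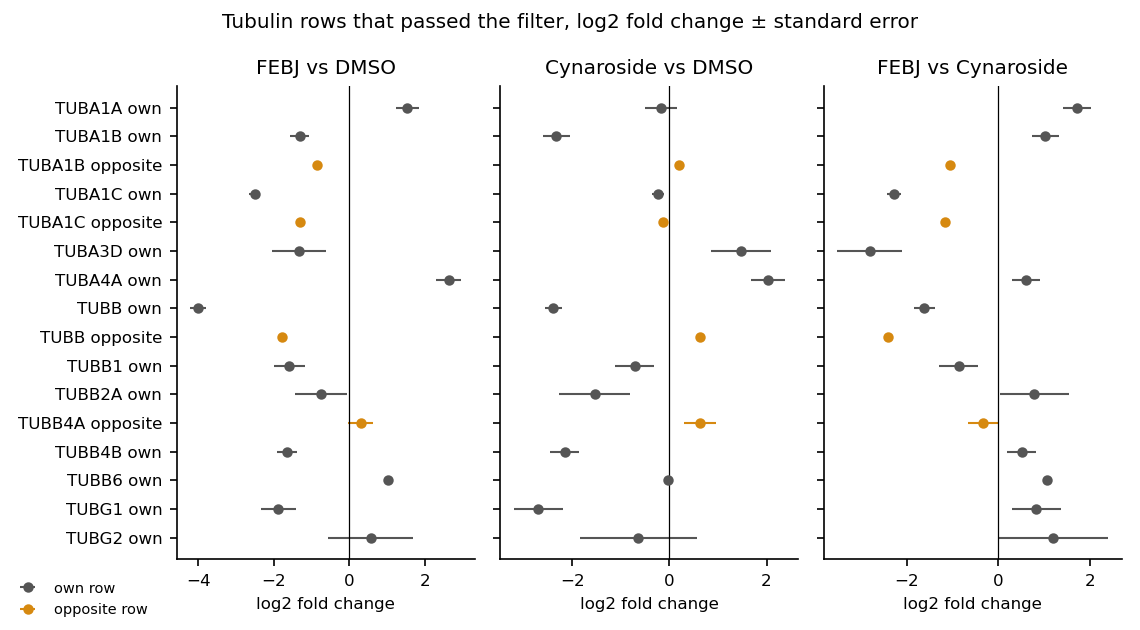
Log2 fold change ± standard error (horizontal axes) of the tubulin rows that passed the low-count filter, in 3 comparisons; grey points are own rows and orange points opposite rows, those of TUBA1B and TUBB being descriptions. The own row of TUBB is lowest with FEBJ at -4.01, next to TUBA4A at 2.62, TUBA1A at 1.53 and TUBB6 at 1.01 on the higher side.

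Of 125 listed genes that build, fold, modify, bind or sever microtubules or move along them, 92 own rows passed the filter. With FEBJ 14 were called higher and 38 lower (median log2 fold change -1.17), and with cynaroside 11 higher and 46 lower (median -1.53). The medians of the protein-coding rows without an exon opposite them, -1.03 and -1.41, lay near these. Of those protein-coding rows 12.0% were called higher and 34.6% lower with FEBJ, and 8.48% and 39.1% with cynaroside. Of the 23 opposite rows of the listed genes, 10 were called higher and 4 lower with FEBJ (median 0.49). With cynaroside 13 were higher and 2 lower (median 0.53). The class of 2004 non-coding rows opposite a single coding gene also leaned higher. There 37.8% were called higher and 23.9% lower with FEBJ (median 0.27), and 42.3% and 5.69% with cynaroside (median 0.45). With all counts of the table as library size the cynaroside split of the opposite rows was 5 higher and 5 lower, so their direction with cynaroside hung on the scaling, while called own rows were mostly lower there too (5 higher, 55 lower). Nothing particular to microtubules is read from these counts.

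No own row of the folding machine was called higher against DMSO. Of 13 tested subunits of the chaperonin and prefoldin, 9 were lower with FEBJ and 10 with cynaroside (medians -2.24 and -3.09). Of all rows 24.8% and 21.1% were called lower, and of protein-coding rows without an exon opposite 34.6% and 39.1%. Called higher were 26.0% and 24.3% of all rows, and 12.0% and 8.48% of those protein-coding rows. These shares are the background for the own rows of each list below. The own row of CCT5, a chaperonin subunit, went from 126 ± 15.2 CPM (SD, n = 2) with DMSO to 25.8 ± 17.3 CPM (SD, n = 2) with FEBJ and 10.6 ± 3.51 CPM (SD, n = 2) with cynaroside. Its opposite row held far more, at 2504 CPM on average with DMSO, 2073 with FEBJ and 2214 with cynaroside. That row moved less (log2 fold changes -0.27 and -0.18). The 2 tested opposite rows of chaperonin and prefoldin genes had medians of -0.10 with FEBJ (1 called lower) and -0.24 with cynaroside (2 called lower). In own rows, CCT3 had 173 counts in the 2 DMSO libraries, 15 with FEBJ and 7 with cynaroside, and CCT7 had 321, 136 and 30. Of 4 tested cofactors, which build the dimer after the chaperonin, TBCA fell with FEBJ (56 counts with DMSO, 4 with FEBJ) and TBCB fell with cynaroside (log2 fold change -0.90). Both calls hung on single libraries in edgeR's test: the adjusted p was 0.054 for TBCA without FEBJ library 1, and for TBCB 0.0647 without DMSO library 1 and 0.169 without cynaroside library 2. In the feedback on tubulin mRNA, the own rows of TTC5, the factor that reads the new chain, and of SCAPER did not pass the filter. CNOT11, a subunit of the CCR4-NOT deadenylase that takes part in it, overlaps TBC1D8 and had a log2 fold change of 1.20 with cynaroside (adjusted p = 0.0308, edgeR quasi-likelihood test), a call lost under every other scaling tried (1.05 with RLE, adjusted p = 0.0569).

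Among 13 tested genes of nucleation, 2 were higher and 4 lower with FEBJ, and 1 higher and 4 lower with cynaroside. CDK5RAP2, which tethers the gamma tubulin ring to the centrosome, had 104 counts with DMSO, 26 with FEBJ and 5 with cynaroside. TUBGCP4, a ring subunit that overlaps TP53BP1, rose with FEBJ from 384 ± 6.96 CPM (SD, n = 2) to 549 ± 34.4 CPM (SD, n = 2). Its value with cynaroside, 480 ± 37.6 CPM (SD, n = 2), was a log2 fold change of 0.33 in the main scaling and -0.15 with all counts of the table as library size. The opposite row of HAUS2, a subunit of the augmin complex, rose with FEBJ from 226 to 725 CPM on average (log2 fold change 1.68 ± 0.09). The own row of HAUS2 fell, from 34 counts with DMSO to 2 with FEBJ (log2 fold change -3.80 ± 1.37).

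Of 20 tested proteins that bind microtubules or their plus ends, 1 was higher and 10 lower with FEBJ, and 12 were lower with cynaroside. MAP4, a microtubule stabiliser of non-neuronal cells, went from 100 ± 20.0 CPM (SD, n = 2) with DMSO to 22.7 ± 3.98 CPM (SD, n = 2) with FEBJ and 12.8 ± 7.50 CPM (SD, n = 2) with cynaroside. MAP1B, a stabiliser best known from neurons, fell with FEBJ (log2 fold change -4.28 ± 0.42) and with cynaroside (-0.80 ± 0.31), and the treatments differed (-3.48 ± 0.44, adjusted p = 1.7e-07, edgeR quasi-likelihood test). TPX2, which builds the mitotic spindle, fell with both (-2.27 and -2.88). The opposite row of MAP1S rose with FEBJ (1.44 ± 0.10), and its value with cynaroside was 0.53, or 0.054 with all counts of the table as library size.

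Of 9 tested destabilisers and severing enzymes, 2 were higher and 2 lower with FEBJ, and 2 higher and 6 lower with cynaroside. KIF2A, a kinesin that takes tubulin off microtubule ends, went in opposite directions, from 285 ± 14.9 CPM (SD, n = 2) with DMSO to 683 ± 21.7 CPM (SD, n = 2) with FEBJ and 151 ± 42.2 CPM (SD, n = 2) with cynaroside. STMN1, which binds free tubulin dimers, fell with both (log2 fold changes -2.18 and -2.13), and SPAST, a severing enzyme, rose with both (2.04 and 1.84). The SPAST call with cynaroside was lost without DMSO library 1 (adjusted p = 0.0538) and without cynaroside library 2 (adjusted p = 0.107) in edgeR's test. The opposite row of KATNA1, the katanin severing subunit, rose with FEBJ (1.90 ± 0.15) while its own row fell (-0.90 ± 0.28), a call lost without FEBJ library 1 (adjusted p = 0.0872, edgeR).

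Of 21 tested motor genes, 4 were higher and 11 lower with FEBJ, and 3 higher and 10 lower with cynaroside. Of their 9 opposite rows, 8 were higher with cynaroside in the main scaling and none lower. In the class of 2004 non-coding rows opposite a single coding gene, 42.3% were called higher and 5.69% lower there. KIF5B, the common kinesin heavy chain, had 292 counts with DMSO, 14 with FEBJ and 23 with cynaroside. DYNC1H1, the dynein heavy chain, fell with both (log2 fold changes -2.75 and -3.12). KLC1, a kinesin light chain whose row overlaps XRCC3 and BAG5, rose with FEBJ, from 413 ± 2.02 CPM (SD, n = 2) to 1362 ± 38.3 CPM (SD, n = 2), and was at 575 ± 11.4 CPM (SD, n = 2) with cynaroside. KIF1C, a kinesin of vesicle transport, moved in the directions of TUBB: its own row fell with both (-2.79 and -1.36), and its opposite row fell with FEBJ (-1.57) and was at 0.66 with cynaroside.

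Of 11 tested enzymes that modify tubulin, 5 were higher and 1 lower with FEBJ, and 4 higher and 3 lower with cynaroside. By comparison, 26.0% and 24.3% of all rows were called higher, and 12.0% and 8.48% of protein-coding rows without an exon opposite. TTL, the ligase that puts the last tyrosine back on alpha tubulin, had 94 counts with DMSO, 10 with FEBJ and 2 with cynaroside, and its call with FEBJ was lost without DMSO library 2 (adjusted p = 0.157, edgeR). AGBL5, a carboxypeptidase that trims tubulin tails and whose row overlaps OST4, rose with cynaroside (log2 fold change 0.70 ± 0.09) and was at 0.25 ± 0.09 with FEBJ. AGBL3, of the same family, had 3 counts with DMSO, 100 with FEBJ and 4 with cynaroside.

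**Figure D5:**
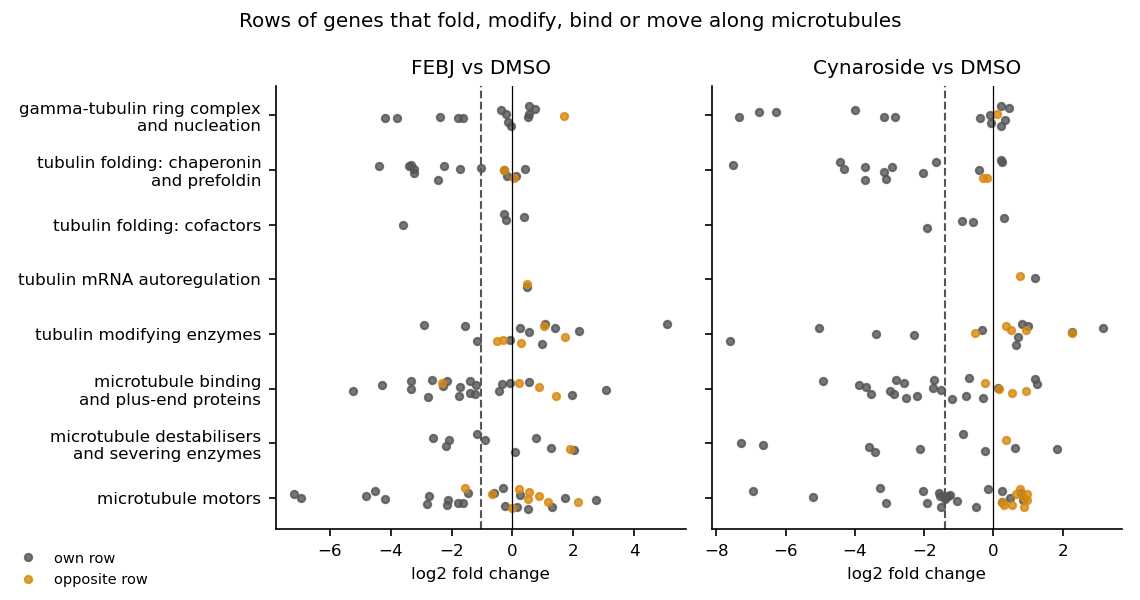
Log2 fold change (horizontal axes) of each tested own row (grey) and opposite row (orange) in the lists of genes around tubulin, for FEBJ (left) and cynaroside (right) against DMSO; the solid line is 0 and the dashed line the median of protein-coding rows without an opposite exon (-1.03 and -1.41). Chaperonin and prefoldin rows lie mostly left of the dashed lines, the opposite rows mostly right of 0; points far out rest on few counts and depend on the count that edgeR adds before the logarithm.

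The rows whose pattern over the 6 libraries was nearest to each tubulin opposite row were sought among 1686 rows with at least 100 CPM on average, by the root mean square difference of log2 levels set to the DMSO mean. For TUBA1B the nearest were the GPS2 row (0.057), which overlaps EIF5A on the other strand, ENSG00000258317 (0.071), which overlaps ZC3H10 and ESYT1, and VIM-AS1 (0.074), which lies opposite the intermediate filament gene VIM. VIM-AS1 was 26140 and 26307 CPM with DMSO, 15619 and 15509 CPM with FEBJ, and 28060 and 30207 CPM with cynaroside. For TUBB they were ENSG00000264044 (0.045), opposite BLTP2, the UQCC6 row (0.091), which overlaps HSP90B1, and ENSG00000288806 (0.098). ENSG00000264044 was 1265 and 1286 CPM with DMSO, 360 and 347 CPM with FEBJ, and 1920 and 2078 CPM with cynaroside.

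The start regions of both genes are shown as background, and whether they bear on the counts was not tested. RefSeq's table for GRCh38.p14 gives 1 window of 300 bases around the start for TUBA1B, at chr12:49131346-49131645 on the minus strand, and 2 for TUBB, at chr6:30720102-30720401 and chr6:30721388-30721687 on the plus strand. Capitals mark 4 kinds of motif, each sought on both strands. The GC box, which members of the SP family of activators bind, was sought as the letters GGGCGG, and overlapping copies were counted separately. The second motif was the CCAAT box, bound by the factor NF-Y, sought by the letters of its name. The TATA box, where the general transcription machinery docks, was sought as the letters TATAAA. The E-box, a site of factors of the basic helix-loop-helix family, was sought as the letters CACGTG.
TUBA1B: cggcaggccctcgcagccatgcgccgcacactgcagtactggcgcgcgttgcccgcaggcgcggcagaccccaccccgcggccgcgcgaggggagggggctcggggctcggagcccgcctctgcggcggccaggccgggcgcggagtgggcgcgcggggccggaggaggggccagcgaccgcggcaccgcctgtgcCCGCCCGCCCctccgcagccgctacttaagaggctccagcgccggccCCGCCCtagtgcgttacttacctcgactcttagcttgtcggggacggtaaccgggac
TUBB first start: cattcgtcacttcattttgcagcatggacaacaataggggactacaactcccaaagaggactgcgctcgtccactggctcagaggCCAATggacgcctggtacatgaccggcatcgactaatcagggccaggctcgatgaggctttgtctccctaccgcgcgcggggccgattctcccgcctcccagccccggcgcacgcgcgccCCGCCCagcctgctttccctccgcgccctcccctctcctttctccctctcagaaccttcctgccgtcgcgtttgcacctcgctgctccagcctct
TUBB second start: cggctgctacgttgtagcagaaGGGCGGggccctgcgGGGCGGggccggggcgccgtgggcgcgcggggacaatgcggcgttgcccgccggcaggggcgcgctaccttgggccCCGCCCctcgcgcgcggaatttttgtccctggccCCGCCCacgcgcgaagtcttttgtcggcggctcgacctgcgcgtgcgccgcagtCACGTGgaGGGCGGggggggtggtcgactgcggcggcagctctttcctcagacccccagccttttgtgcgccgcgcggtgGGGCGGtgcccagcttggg

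The TUBA1B window held 3 GC boxes, the first TUBB window 1 GC box and 1 CCAAT box, and the second TUBB window 6 GC boxes and 1 E-box. No TATA box letters were in any of the 3. Over all 35116 windows of the table, 45.0% held a GC box, 34.6% a CCAAT box, 11.5% a TATA box and 7.26% an E-box. The windows were rich in G and C, at 77.0%, 63.3% and 75.3%, against a median of 58.7% over the table. These matches are descriptions of letters, and the counts do not show which start was used.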

How the data were processed

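The authors deposited 1 table of raw read counts per gene for each of 6 libraries. Per the submitters' processing notes, CASAVA 1.7, HISAT2, HTSeq 0.12.4 and DESeq2 1.38.0 were used with hg19; the strand setting, the library kit and the annotation release are not given in the sources used here. The summary rows at the foot of each table entered neither the library sizes nor the tests, except that 1 alternative took all counts of a table as its library size. They took all but 5.48% to 6.12% of the counts. Of 62754 gene rows, 58261 matched GENCODE 29 by identifier. A non-coding row was called opposite when its exons overlapped those of 1 protein-coding gene, on the other strand, by at least 50 bases.

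Rows were filtered with edgeR's filterByExpr, scaled by TMM and fitted over all 6 libraries with edgeR 4.0.16 (quasi-likelihood test, R 4.3.3, 3 residual degrees of freedom), with Benjamini-Hochberg adjustment over all tested rows at 0.05. Standard errors are the log2 fold change over the root of the F statistic. The fit was tested on simulated data. DESeq2 1.42.0 and other scalings, filters and subsets were alternatives. The members, lists and alternatives were chosen with earlier results of these data known. Named were the 2 genes, every tubulin row past the filter, from each other list rows among the 2 rising and 2 falling with the smallest p against DMSO, and the 3 rows nearest to each opposite row. AFG3L2, ATP5F1E and FAM166A were named after their overlaps, and the values of AFG3L2 and FAM166A were given after they were seen. The CCT5 opposite row and the HAUS2 own row are given beside the named rows of those genes. Libraries of a group correlated at r = 0.951 to 0.960 across genes, which are not independent replicates, and differed beyond counting noise (mean chi-square per row 3.03 to 3.19).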

Additional observations from a re-analysis of the deposited data

Results flagged for a closer look

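Counts aligned to more than 1 place, a summary row that no comparison used, took a larger share in all 4 treated libraries than in the DMSO libraries, both at 2.79%. The share was 2.93% and 3.02% with FEBJ and 3.61% and 3.64% with cynaroside.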

How the results depend on the processing

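Each alternative changed 1 choice, though DESeq2 brought its own scaling and leaving out libraries also moved which rows passed the filter. The 2 that use plain library sizes (gene-row totals, or all counts of the table) were chosen after seeing the data. Scaling moved the median log2 fold change of all rows from -0.06 to as low as -0.30 (FEBJ against DMSO), from 0.02 to as low as -0.46 (cynaroside against DMSO) and from 0.12 up to 0.48 (FEBJ against cynaroside), so fold changes should be read against those shifts. The split of called rows followed: 2917 higher and 2537 lower with cynaroside became 1422 and 3885 with factors from opposite rows, 1782 and 3444 with gene-row totals and 1402 and 3896 with all counts, and 2579 and 2455 between FEBJ and cynaroside became 3244 and 2035 with factors from opposite rows and 3607 and 1788 with all counts. Total calls stayed within 1.5 times, and leaving out 1 library gave 4621 to 6957, 3643 to 5478 and 4004 to 4854.

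The opposite row of TUBA1B with FEBJ had log2 fold changes of -0.97 with RLE and with DESeq2, -0.998 with upper quartile, -1.11 with factors from opposite rows, -0.93 with no filter, -0.92 with a filter at 1 CPM, -1.02 with gene-row totals and -0.99 with all counts. With cynaroside it was 0.047 with RLE and with DESeq2, 0.031 with only the 4 libraries compared, and on the other side of 0 with upper quartile (-0.00047), factors from opposite rows (-0.27), gene-row totals (-0.15) and all counts (-0.28). Between FEBJ and cynaroside it was -0.84, -0.87 and -0.71 with the last 3. For TUBB with FEBJ the values were -1.88 with RLE, -1.89 with DESeq2, -1.91 with upper quartile, -2.02 with factors from opposite rows, -1.84 with no filter, -1.83 with a filter at 1 CPM, -1.81 with only the 4 libraries, -1.93 with gene-row totals and -1.90 with all counts. With cynaroside they were 0.48 with RLE and DESeq2, 0.44 with upper quartile, 0.16 with factors from opposite rows, 0.47 with the 4 libraries, 0.29 with gene-row totals and 0.16 with all counts. Between FEBJ and cynaroside they were -2.35 with upper quartile, -2.19 with factors from opposite rows, -2.22 with gene-row totals and -2.06 with all counts. Leaving out 1 library gave -0.92 to -0.83, 0.14 to 0.27 and -1.18 to -0.998 for TUBA1B, and -1.82 to -1.77, 0.59 to 0.69 and -2.51 to -2.37 for TUBB, in the order of the comparisons above.

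The own rows kept every call except TUBA1B in DESeq2 (log2 fold change -1.38, adjusted p = 0.0643, with FEBJ; 1.23, adjusted p = 0.124, between FEBJ and cynaroside) and TUBA1B between the treatments without FEBJ library 1. Leaving out 1 library gave -2.11 to -0.77, -3.15 to -1.99 and 0.23 to 1.83 for TUBA1B and -4.46 to -3.72, -2.62 to -2.24 and -2.05 to -1.34 for TUBB. Summing own and opposite rows turned 3 directions: TUBA1B with cynaroside (0.18) and between FEBJ and cynaroside (-1.06), and TUBB with cynaroside (0.61); there the opposite row makes up nearly all of the sum.

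With the replicate number as a block, 5762, 5110 and 4801 rows were called and no tubulin call above changed; for KATNA1's own row with cynaroside the edgeR adjusted p became 0.0687. Same-numbered libraries did not deviate together over all tested rows (correlations of -0.012, -0.0064 and 0.0015). Counting noise in rows with few counts can hide a shared deviation, so whether the numbers pair the samples is not settled.

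Of 81 further values for named rows, leaving out a library left 443 within the same call, ended 28, added 7 and reversed 5, and the other settings gave 751, 27, 26 and 4. The reversed ones were TUBA1A (0.18, range over left-out libraries -0.95 to 0.18) and TUBG2 (0.046, range -5.71 to 0.046) with cynaroside without cynaroside library 1, TUBB6 with cynaroside without DMSO library 2 (0.016) or cynaroside library 1 (0.068), TUBG2 with FEBJ without DMSO library 1 (-0.26, range -0.26 to 0.62), TUBB4A's opposite row between FEBJ and cynaroside with all counts (0.021), and TUBGCP4 with cynaroside with factors from opposite rows (-0.14), gene-row totals (-0.018) and all counts (-0.15). Calls among the 10 other tubulin own rows with cynaroside went from 3 to 5 with RLE and with DESeq2, 6 with upper quartile and with the 4 libraries, and 7 with factors from opposite rows, gene-row totals and all counts, and leaving out 1 library gave 3 to 5. Counts for the lists around tubulin stayed within 1.5 times (leaving out 1 library: 39 to 54, 42 to 56 and 26 to 32 own rows, 12 to 15, 10 to 14 and 13 to 16 opposite rows). With own plus opposite counts as denominator the own shares changed by less than the spread within groups. Own rows with few counts are limited by depth.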
